A study of Mus musculus with 10 samples.

Results

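The wide distal open regions of colon epithelium were examined by ATAC-seq, which cuts accessible DNA with a transposase and reads it as peaks. Peaks of 10 libraries of mouse colon organoids were merged wherever they shared at least 1 bp, which gave 85680 regions. Members were the 2057 regions (2.40%) that were at least 2500 bp wide and had a midpoint more than 5 kb from every transcription start of a protein-coding gene. They were thus chosen by the measured lengths of the peaks, so that width and covered bases are given as a description, with no test. The members made up 49.1% of the 4192 regions of that width and 3.54% of the 58114 distal regions. Organoids were grown from crypts of the whole colon of WT mice or of Vil-Cre Ahr fl/fl littermates, here AHR KO, in which Cre under the villin promoter deletes the aryl hydrocarbon receptor gene in intestinal epithelium. They were kept in WENR medium, which supplies Wnt3a, EGF, Noggin and R-spondin, or were moved for 4 days to ENR medium (d4 ENR), which lacks Wnt3a and induces differentiation. WENR also held SB202190, A83-01 and nicotinamide, so the media differed in more than Wnt3a. There were 2 libraries of WT WENR, 3 of AHR KO WENR, 3 of WT d4 ENR and 2 of AHR KO d4 ENR.

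Distal open regions far from a gene start are often enhancers, stretches of DNA to which transcription factors bind and from which they act on promoters over a distance. A wide region can hold several such elements side by side, and clusters of this kind are known near genes that define a cell type. AHR is a ligand-activated factor that pairs with ARNT, and in the gut its best-known targets are the cytochrome P450 enzymes that break down its ligands. In intestinal epithelium, CDX2, HNF4, KLF and GATA factors maintain identity, TCF7L2 carries Wnt signals, and AP-1 and TEAD factors are active in injured and regenerating tissue.

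Windows of 160 bases from 6 members are shown because these members recur below. Each window lies within the stretch that most libraries covered and holds the most matches to the words searched. The members were chosen for display among the named ones with at least 1 match. Sequences are from the GRCm38 reference, 5′ to 3′ on the forward strand, with matches in capitals.
Within Atf3, chr1:191170564-191170723: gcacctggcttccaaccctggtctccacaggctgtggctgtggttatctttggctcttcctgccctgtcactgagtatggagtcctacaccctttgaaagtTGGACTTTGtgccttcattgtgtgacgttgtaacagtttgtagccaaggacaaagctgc
Near Krt8, chr15:101994585-101994744: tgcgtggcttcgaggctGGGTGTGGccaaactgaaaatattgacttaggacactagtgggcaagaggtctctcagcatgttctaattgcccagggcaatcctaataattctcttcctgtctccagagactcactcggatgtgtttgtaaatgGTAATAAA
Near Gadd45b, chr10:80939715-80939874: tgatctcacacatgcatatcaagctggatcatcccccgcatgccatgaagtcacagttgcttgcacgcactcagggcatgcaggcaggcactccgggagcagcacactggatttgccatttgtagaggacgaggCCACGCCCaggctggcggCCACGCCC
Within Nfe2l2, chr2:75697206-75697365: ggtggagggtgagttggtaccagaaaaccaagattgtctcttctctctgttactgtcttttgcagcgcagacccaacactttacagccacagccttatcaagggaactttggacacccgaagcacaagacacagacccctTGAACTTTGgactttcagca
Near Id1, chr2:152726646-152726805: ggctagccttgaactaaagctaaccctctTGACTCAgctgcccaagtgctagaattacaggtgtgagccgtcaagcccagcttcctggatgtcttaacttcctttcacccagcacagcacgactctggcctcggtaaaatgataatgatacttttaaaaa
Near Klf12, chr14:99612531-99612690: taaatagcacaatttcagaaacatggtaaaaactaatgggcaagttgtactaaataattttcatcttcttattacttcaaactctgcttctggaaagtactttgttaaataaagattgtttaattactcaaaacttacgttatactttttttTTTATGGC
The capitals mark an HNF4 word in the Atf3 and Nfe2l2 windows and a KLF word followed by a CDX2 word in the Krt8 window. They mark a pair of KLF words in the Gadd45b window, an AP-1 word in the Id1 window and a CDX2 word in the Klf12 window. A match is a string of letters and not a measured site of binding.

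The libraries held 30354729 to 49126792 fragments and 33433 to 65308 peaks. The shortest list was that of WT d4 ENR replicate 1, and every d4 ENR library had fewer fragments (at most 36307860) and shorter ones (at most 221 bp) than every WENR library (at least 41686181 and 235 bp). Depth and fragment length therefore cannot be told apart from the medium. Within d4 ENR the fragments were also longer in AHR KO (221 and 202 bp) than in WT (200, 156 and 172 bp). Fragment length there cannot be told apart from the genotype. Epithelial identity was seen at promoters. All 12 epithelial markers, among them Epcam, Cdh1 and Vil1, had a promoter peak in all 10 libraries, and none of the 7 immune cell markers had one in any library. Of 9 fibroblast, muscle and endothelial markers, 2 to 6 had a promoter peak in a library. Col1a1 and Pdgfra had one in all 10 libraries, and Pdgfrb, Acta2 and Kdr had one throughout WENR and none in d4 ENR. Des had one in 3 of the WENR libraries and none in d4 ENR. Col1a2, Pecam1 and Cdh5 had none in any library, and the part of other cells in the results was not tested.

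Members had a median width of 2967 bp (interquartile range 2698 to 3414 bp), against 873 bp over all merged regions. The widest spanned 10363 bp, 210 members were at least 4000 bp wide and 56 at least 5000 bp. In 1722 members (83.7%) a peak of a single library already reached 2500 bp, and the other 335 reached it only by joining peaks of several libraries. Together the members spanned 6.53 Mb, which was 7.29% of the 89.7 Mb under peaks in any library. The members just inside the width threshold had 2500 bp and were nearest to Sh3bp4, Pkp1, Chst3 and Ube2n. Those just outside had 2499 bp (nearest to Per2, Ryr2 and Galns) or 2498 bp (Pawr). At the distance threshold the closest members lay 5004 bp (Mical2) and 5025 bp (Mtm1) from a start, and the closest regions left out lay at 4997 bp (2010109I03Rik) and 4992 bp (Tlr9).

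The midpoint of 1101 members lay in an intron, of 115 in an exon and of 841 between genes. The median distance to the nearest protein-coding start was 19534 bp, and 227 members lay more than 100000 bp from one. A start of a noncoding transcript lay inside 171 members (8.31%). Of the members, 286 (13.9%) lay within 10 kb of another member. The members were nearest to 1516 of 21924 protein-coding genes (6.91%). Of these genes 348 had at least 2 members and 49 had at least 4. The most members, 7, lay nearest to Klf14, a Krüppel-like factor gene, Tgfbr2, a receptor for TGF-beta, Lurap1l and C130026I21Rik. Magi1 had 6. Hnrnpa3, Akap13, Car2, Sox9, Arid5b, Palld, Thsd4 and Klf6 had 5 each, of which Car2 encodes a carbonic anhydrase and Sox9 a factor of crypt base cells. Those of Sox9 all lay 303765 to 607395 bp from its start.

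Most members were open in both media. A peak was called in all 10 libraries in 1366 members (66.4%), against 84.8% of 2135 wide regions near promoters and 22.6% of 56057 narrower distal regions. A WENR library called 2006 to 2017 members, a WT d4 ENR library 1420 to 1778 and an AHR KO d4 ENR library 1797 or 1880. The 5 WENR lists shared 1962 members and the 5 d4 ENR lists shared 1385. Peaks were present throughout WENR and missing throughout d4 ENR in 84 members, and 18 had no WENR peak. Neither count was made over all regions, so nothing about the members is read from them. The bases within a member were shared less widely than the member itself. Only 19.4% of member bases lay under a peak in all 10 libraries, and 13.1% lay under a peak in 1 library alone. A core covered in all 10 was present in 1331 members, with a median of 830 bp among them.

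The length of members under peaks was smaller in d4 ENR, and more so in WT than in AHR KO. It was 4.86 and 4.83 Mb in the WT WENR libraries and 4.69, 5.05 and 5.33 Mb in the AHR KO WENR libraries. It was 1.73, 2.06 and 2.65 Mb in WT d4 ENR and 3.40 and 3.45 Mb in AHR KO d4 ENR. The 5 d4 ENR libraries all lay below the 5 WENR libraries, and both AHR KO d4 ENR libraries lay above all 3 of WT. The group means were 4.84 Mb ± 0.022 (SD, n = 2) in WT WENR, 5.02 Mb ± 0.32 (SD, n = 3) in AHR KO WENR, 2.14 Mb ± 0.47 (SD, n = 3) in WT d4 ENR and 3.43 Mb ± 0.032 (SD, n = 2) in AHR KO d4 ENR. WT members thus had 44.3% of their WENR length under peaks in d4 ENR and AHR KO members 68.3%. Wide regions near promoters kept 56.3% and 80.6%, and narrower distal regions 46.8% and 71.0%. In log2 terms the members changed by -1.18 in WT and -0.55 in AHR KO, with AHR KO at 0.68 above WT in d4 ENR and at 0.05 above WT in WENR. The spread between libraries of a group was 0.19 on this scale, and the difference between the genotypes in WENR was smaller than it. When every list was shortened to its 33433 strongest peaks, the length of the shortest list, the log2 changes were -0.92 in WT and -0.36 in AHR KO.

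Member by member, the covered length in every d4 ENR library was below that in every WENR library in 1047 members, or 50.9%, where 27.8% of all merged regions were so. It was above in 12 members, where 0.553% of all merged regions were so. In d4 ENR, 1077 members (52.4%) had more covered bases in both AHR KO libraries than in all 3 WT libraries, against 29.3% of all regions, and 11 had fewer, against 0.274%. In WENR the counts were alike in the 2 directions, with 261 members higher in all AHR KO libraries (9.87% of all regions) and 227 lower (9.36% of all regions). The wide regions near promoters had 42.5% lower in d4 ENR and 60.9% higher in AHR KO d4 ENR. These shares come from the same peaks that chose the members, so nothing is read from their distance to the background. With every list shortened as above, the rule gave 1326 regions, of which 483 were lower in every d4 ENR library and 702 higher in AHR KO d4 ENR. No share over all regions of the shortened lists was counted, so nothing about the members is read from these counts.

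**Figure D1:**
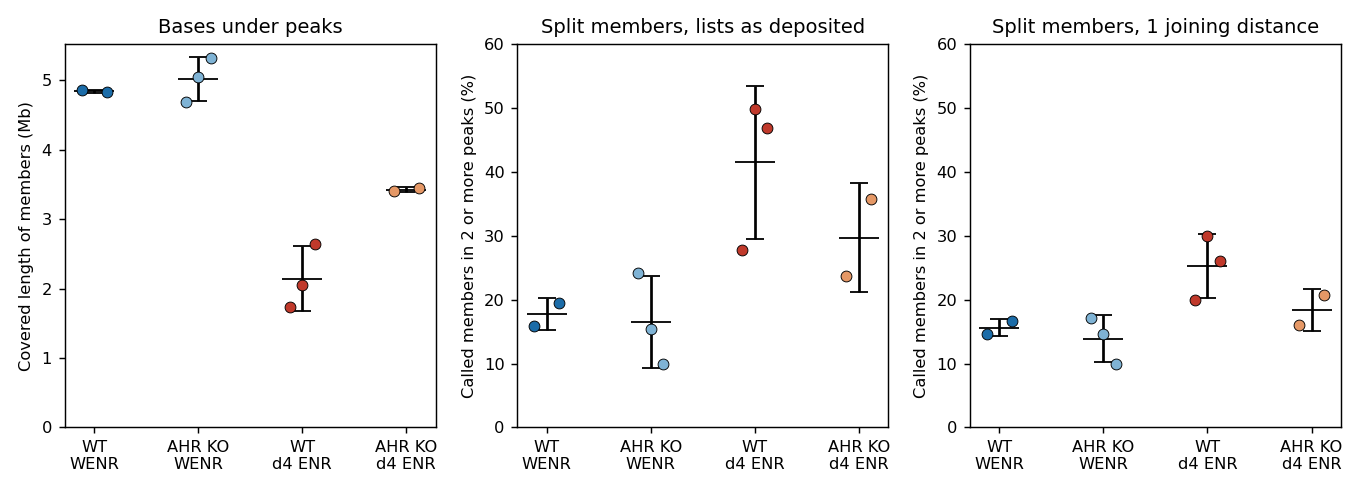
Members in each library (points), with the mean and SD of each group (bars). The left panel gives the covered length in Mb, which ran from 1.73 Mb in a WT d4 ENR library to 5.33 Mb in an AHR KO WENR library; the others give the percentage of called members split into 2 or more peaks, in the lists as deposited and after peaks less than 1020 bp apart were joined in every library.

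In WT the median member kept 42.2% of its WENR bases in d4 ENR (of 2026 members with a WT WENR peak), and the median AHR KO member 68.7% (of 2034). In WT 221 members kept none, 1212 kept less than 50% and 36 kept all or gained. In AHR KO the counts were 147, 624 and 320. A peak in both AHR KO d4 ENR libraries and in no WT d4 ENR library was present in 46 members, and the converse in 1. No share over all regions was counted for either, so nothing about the members is read from them.

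**Figure D2:**
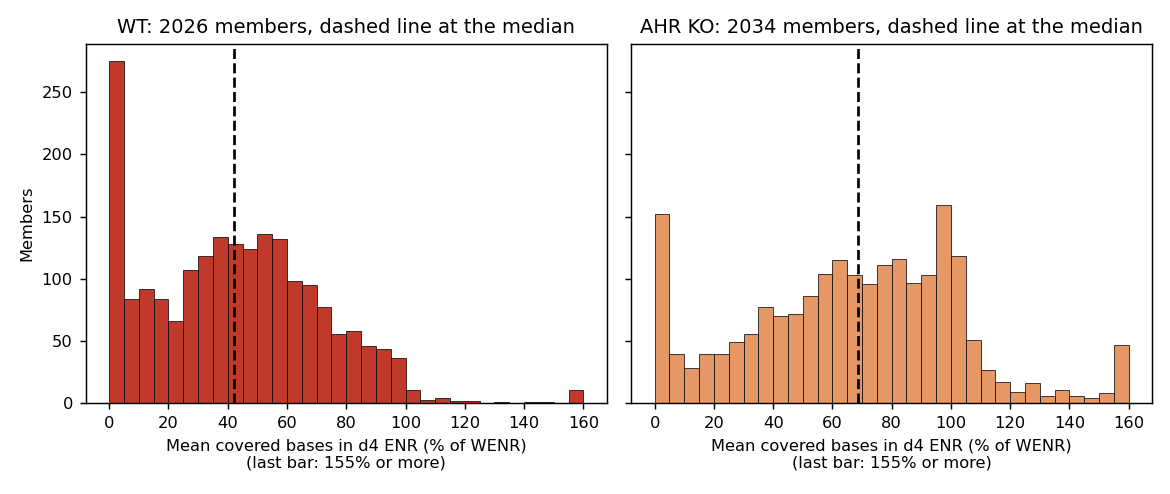
Histograms of members by the mean covered bases in d4 ENR as a percentage of the mean in WENR, in WT (left) and AHR KO (right). The dashed medians lie at 42.2% and 68.7%, and the AHR KO members pile up near 100%, where few WT members lie.

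Members were also split into more peaks in d4 ENR. Of the members called in a library, 15.9% and 19.4% were in 2 or more pieces in WT WENR and 24.2%, 15.4% and 9.87% in AHR KO WENR. The shares were 27.8%, 49.8% and 46.9% in WT d4 ENR and 23.7% and 35.7% in AHR KO d4 ENR. The media overlapped here, since AHR KO WENR replicate 1 lay above AHR KO d4 ENR replicate 1. The mean number of pieces was 1.18 ± 0.027 (SD, n = 2) in WT WENR, 1.17 ± 0.075 (SD, n = 3) in AHR KO WENR, 1.45 ± 0.14 (SD, n = 3) in WT d4 ENR and 1.31 ± 0.090 (SD, n = 2) in AHR KO d4 ENR. Among the 1366 members with a peak in all 10 libraries, 41 (3.00%) had more pieces in every d4 ENR than in every WENR library, where 0.308% of all such regions did. At most 2.84% of called narrower distal regions had 2 or more pieces in any library, so little can be read from that share. Wide regions near promoters also split more, with group means of 11.3% in WT WENR, 11.2% in AHR KO WENR, 35.8% in WT d4 ENR and 23.0% in AHR KO d4 ENR in 2 or more pieces.

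The splitting moved with a property of the peak calls. The smallest gap between neighbouring peaks of a library was close to 4 times its fragment length in each list, from 625 bp in WT d4 ENR replicate 2 (fragments of 156 bp) to 1023 bp in AHR KO WENR replicate 3 (255 bp). Peaks closer than 1020 bp were therefore joined in every library. The shares in 2 or more pieces then were 15.6% ± 1.4 (SD, n = 2) in WT WENR, 13.9% ± 3.7 (SD, n = 3) in AHR KO WENR, 25.3% ± 5.0 (SD, n = 3) in WT d4 ENR and 18.4% ± 3.3 (SD, n = 2) in AHR KO d4 ENR. AHR KO d4 ENR replicate 1, at 16.0%, then lay within the range of the WENR libraries, which reached 17.2%. AHR KO d4 ENR replicate 2, at 20.7%, and the WT d4 ENR libraries, at 20% to 30.0%, lay above it. The covered length after joining was 1.84, 2.40 and 3.01 Mb in WT d4 ENR and 3.54 and 3.73 Mb in AHR KO d4 ENR. The part of fragment length in the difference between the genotypes was not tested.

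Along the members, coverage in d4 ENR was lowest at the edges and had a second low in the middle. In WT WENR 77.3% of bases were covered just past the middle and 80.5% at 22.5% of the width. In WT d4 ENR the middle had 29.9%, while the shoulders had 42.6% at 17.5% and 42.4% at 82.5% of the width. AHR KO d4 ENR had the same shape at a higher level, with 51.4% at 57.5% of the width and 61.3% and 59.8% at the same shoulders.

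**Figure D3:**
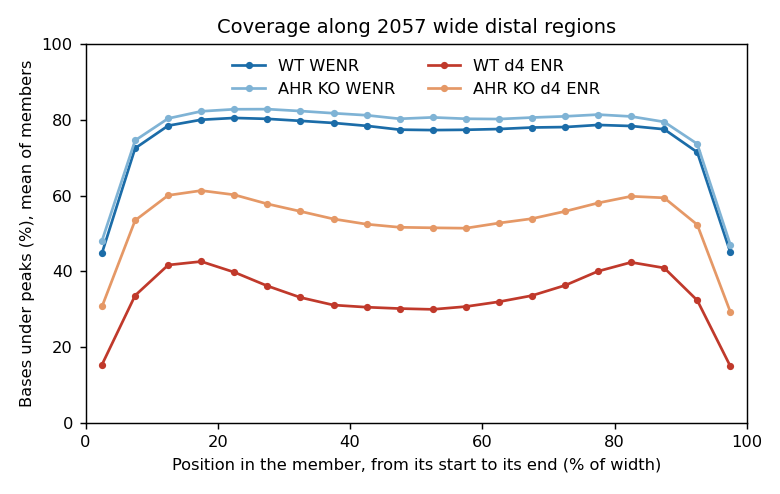
Mean percentage of bases under peaks along the members, in 20 bins from the start to the end of each, averaged over the libraries of a group. The WENR lines run flat near 80% between the edges, and the d4 ENR lines dip in the middle, to 29.9% in WT.

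The widest member spanned 10363 bp at chr1:191165714-191176076. Its midpoint lay in an exon of Atf3, a stress-induced factor of the AP-1 family, 6078 bp upstream of the nearest coding start, that of Fam71a. It had 7269 and 6381 bp under peaks in WT WENR, 7170, 8713 and 8552 bp in AHR KO WENR, 202, 3751 and 4643 bp in WT d4 ENR, and 8788 and 6010 bp in AHR KO d4 ENR. The 3 WT d4 ENR libraries lay below all others, which overlapped, and this member had the largest difference between AHR KO and WT in d4 ENR, 4534 bp on average. In lists shortened to the strongest 33433 peaks that difference turned to -67.3 bp, and that of d4 ENR from WENR to 33.7 bp.

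Near Tmprss2, a membrane serine protease of epithelia, lay a member of 9304 bp within the gene (chr16:97572750-97582053) and one of 7151 bp (chr16:97558722-97565872) downstream of the nearest start. The longer one had 6385 and 2556 bp in WT WENR, 5646, 4969 and 5425 bp in AHR KO WENR, none, 204 and 568 bp in WT d4 ENR, and 1331 and 782 bp in AHR KO d4 ENR. In this member every d4 ENR library lay below every WENR library. The shorter one had 5699 to 7147 bp in WENR and at most 2671 bp in d4 ENR.

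A member of 8982 bp (chr19:5828463-5837444) lay 30729 bp from the start of Frmd8 and 4941 bp from that of Neat1, the noncoding RNA that builds nuclear paraspeckles. It had 5917 to 7725 bp in WENR, none, 1865 and 1000 bp in WT d4 ENR and 2703 and 3792 bp in AHR KO d4 ENR, in up to 4 pieces. A member of 7780 bp in Usp24, which encodes a ubiquitin-specific protease (chr4:106436145-106443924), had the largest difference between the media. It had 5613 and 5967 bp in WT WENR and 5762, 7131 and 7612 bp in AHR KO WENR. In d4 ENR it had no peak in WT replicates 1 and 2, 370 bp in WT replicate 3, and 2429 and 930 bp in AHR KO. The member of 6708 bp nearest to Ezr, which encodes ezrin of the microvilli, lay within Sytl3 (chr17:6731338-6738045) and had 4141 to 5840 bp in WENR and 0 to 959 bp in d4 ENR, but in the shortened lists the mean difference of d4 ENR from WENR turned to 43.2 bp. The member of 7964 bp nearest to Tnfrsf10b, a death receptor gene, had 3329 to 6424 bp in WENR and 0 to 2475 bp in d4 ENR.

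A member 9286 bp upstream of Id1, a BMP target that blocks differentiation factors (chr2:152725000-152728930, 3931 bp), had the largest increase of pieces among members called in every library. It was 1 peak in all 5 WENR libraries, of 3613 to 3757 bp. In d4 ENR it was 2, 3 and 3 peaks in WT and 3 and 3 in AHR KO, and the covered length was 1024, 1412 and 1571 bp (WT) and 1445 and 1658 bp (AHR KO). All d4 ENR libraries kept a central piece that overlapped between them, in which the window above lies. The difference of AHR KO from WT in d4 ENR turned to -133 bp in the shortened lists. A member of 5782 bp at chr14:99609082-99614863, 288419 bp from the start of Klf12, a Krüppel-like factor, had 1 peak in 4 of the WENR libraries and 2 in WT replicate 2, with 4737 to 5753 bp covered. It had 3 peaks in each of the 5 d4 ENR libraries, which covered 1301, 1291 and 2077 bp (WT) and 3342 and 2922 bp (AHR KO). Its pieces covered more bases in both AHR KO libraries than in all WT ones. The other 2 of the 4 largest increases of pieces, near Prdx6, a peroxiredoxin gene, and near Gm38393, were in members with 1 peak or none over all WENR libraries.

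**Figure D4:**
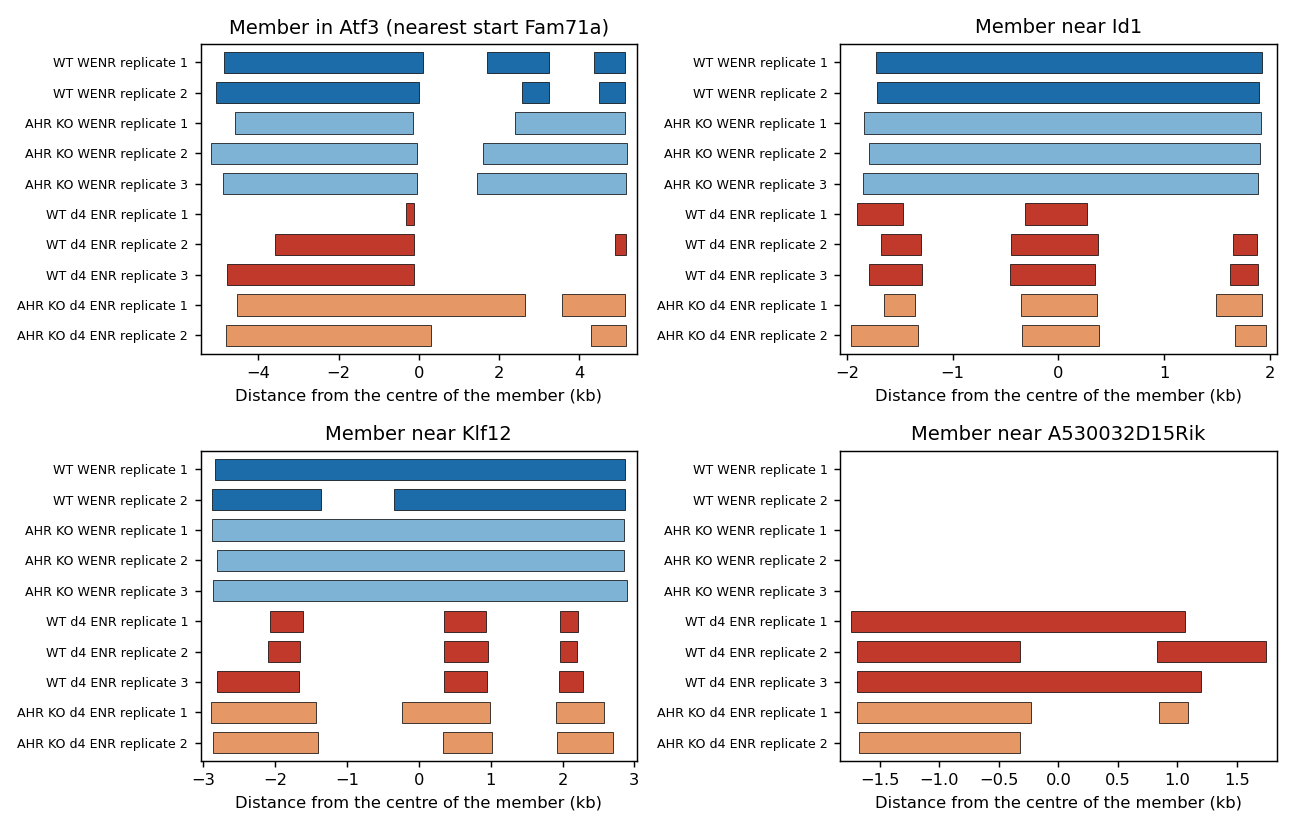
Peaks of the 10 libraries in 4 members, as bars against the distance from the centre of the member in kb, with rows in blue for WENR and red or orange for d4 ENR. The Id1 and Klf12 members are mostly 1 bar in WENR and 2 or 3 bars in d4 ENR, the Atf3 member is shortest in WT d4 ENR, and the A530032D15Rik member has bars in d4 ENR alone.

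Of the 12 members with more covered bases in every d4 ENR than in every WENR library, 8 had no peak in any WENR library, and 6 lay within chr1:85079784-85322264, near Gm10553, A530032D15Rik and C130026I21Rik. Among the 12, the largest difference was at a member on the X chromosome nearest to Btbd35f29 (chrX:31158067-31161523), with no WENR peak, 3443, 1755 and 1977 bp in WT d4 ENR and 2640 and 2737 bp in AHR KO d4 ENR. The A530032D15Rik member (chr1:85164408-85167901) had no WENR peak, 2810, 2283 and 2890 bp in WT d4 ENR and 1699 and 1352 bp in AHR KO d4 ENR. Repeat-masked sequence made up a median of 27.1% of these 12 members, against 18.4% of all members. It ran from 8.84% in the Gm10553 member to 73.4% in the one nearest to Gm21119. In the Gm10553 member 31.1% of all words of 31 bases recurred in another member, against a median of 0.690% over all members. It was the only 1 of the 12 that shared at least 10%, and the median of the 12 was 1.78%. The share was 1.28% in the Btbd35f29 member and 0% in that of A530032D15Rik. Words were compared between members only. Reads from near-identical copies cannot be assigned with certainty, so values in such copies are uncertain, and the part of repeats in the result was not tested. The exceptions with a peak in all 10 libraries were a member nearest to Fchsd2 and a second one nearest to Klf12.

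The members with the largest excess of AHR KO over WT in d4 ENR, after that in Atf3, lay nearest to Hnrnpa3, 2010111I01Rik and Cystm1. The Hnrnpa3 member (chr2:75669268-75674983, 5716 bp) had 4837 and 5404 bp in WT WENR and 3247, 4676 and 4668 bp in AHR KO WENR. It had no peak in WT d4 ENR replicates 1 and 2, 954 bp in replicate 3, and 4021 and 4371 bp in AHR KO d4 ENR, which is within the WENR range. Hnrnpa3 encodes an RNA-binding protein, and 5 members lay nearest to it. The 2010111I01Rik member had 0, 0 and 661 bp in WT d4 ENR and 3018 and 3865 bp in AHR KO d4 ENR, and the Cystm1 member 704, 2322 and 3447 bp against 6357 and 4060 bp. In the shortened lists the Cystm1 member was longer in d4 ENR than in WENR, by 2464 bp on average.

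Of the 11 members with fewer covered bases in AHR KO d4 ENR, the one in Asap1, a regulator of ARF GTPases (chr15:64256397-64259478), had 2987 and 2870 bp in WT WENR and 807, 1675 and 1400 bp in WT d4 ENR. In AHR KO it had no peak in 4 of 5 libraries, and 398 bp in WENR replicate 3, so that this difference was present in both media. The member nearest to 4930467E23Rik (chr8:19702451-19705833) had 3123, 2113 and 2545 bp in WT d4 ENR against 964 and 1064 bp in AHR KO, and 77.4% of its words recurred in another member. The others named by this rule lay nearest to C130026I21Rik in the cluster on chromosome 1 and to Gm21860 on the Y chromosome.

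Among the members, 67 (3.26%) had fewer covered bases in WT d4 ENR than in WT WENR and more in AHR KO d4 ENR than in AHR KO WENR, every library of a genotype taken against every other, where 1.84% of all merged regions did. The converse held for 1 member, where 0.00934% of all regions did. A member in Cdh1, which encodes E-cadherin of epithelial junctions (chr8:106608305-106611765), had 3433 and 3194 bp in WT WENR and 1939, 925 and 1313 bp in WT d4 ENR. In AHR KO it had 2020, 2103 and 2958 bp in WENR and 3255 and 3167 bp in d4 ENR. A member 92353 bp upstream of Gata6, an endodermal factor, had 1749 and 1519 bp in WT WENR, 534, 1272 and 1421 bp in WT d4 ENR, 1692, 714 and 642 bp in AHR KO WENR and 3721 and 2563 bp in AHR KO d4 ENR. The Gata6 member was longest in both AHR KO d4 ENR libraries.

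Over all protein-coding genes 6.91% were nearest to a member, and over 25 factors of intestinal identity 16 were, with 31 members in all. Sox9 had 5 and Klf4, Klf5 and Tcf7l2 had 4 each. A nearest gene can be far away. The Sox9 members lay 303765 to 607395 bp from its start and those of Klf4 lay 6586 to 503023 bp from its start. Of these 31 members, 19 were lower in every d4 ENR library and none was higher, and 16 were higher in both AHR KO d4 ENR libraries. The shares to set beside the counts of this and the following lists are 50.9% and 52.4% of all members and 27.8% and 29.3% of all merged regions, and nothing is called particular to a list. The widest, in an intron of Klf5, a factor of proliferating crypt cells (chr14:99306815-99311797, 4983 bp), had 3416 and 3515 bp in WT WENR and 4909, 4922 and 4825 bp in AHR KO WENR. It had 0, 248 and 659 bp in WT d4 ENR and 691 and 1879 bp in AHR KO d4 ENR. The members near Cdx2 and Foxa1 kept their length. That of Cdx2, a master factor of the intestine (chr5:147291852-147294499), had 2535 to 2593 bp in WENR and 2394 to 2591 bp in d4 ENR. That of Foxa1 had 2610 to 2742 bp and 2329 to 2753 bp. The media overlapped at both.

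Wnt target and stem cell genes had 19 members near 8 of 20 genes, those of Sox9 counted again, with 8 lower in d4 ENR and 12 higher in AHR KO d4 ENR. The widest lay in an exon of Ephb2, the receptor that positions crypt cells, with 1686 to 3297 bp in WENR, 0, 0 and 594 bp in WT d4 ENR and 928 and 1325 bp in AHR KO d4 ENR. A member 78974 bp upstream of Cd44, a Wnt target, had 1049 to 2592 bp in WENR and none in d4 ENR. The members nearest to Myc lay 186555 and 502607 bp from its start. EGF, TGF-beta and BMP signalling genes had 25 members near 13 of 22 genes, 15 of them lower in d4 ENR and 15 higher in AHR KO d4 ENR. Of the 7 nearest to Tgfbr2, that at chr9:116186832-116191248 had 4354 to 4392 bp in WENR, 1802, 2217 and 2368 bp in WT d4 ENR and 4341 and 3278 bp in AHR KO d4 ENR. The others included one with a single peak, of 2637 bp, in AHR KO WENR replicate 2. Errfi1, a feedback inhibitor of the EGF receptor, had the widest member of this list, of 6079 bp, with 1864 to 4458 bp in WENR and 709 to 3805 bp in d4 ENR, a difference that turned to 720 bp in the shortened lists.

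Absorptive colonocyte genes had 11 members near 6 of 21 genes, 5 of them near Car2, with 5 lower in d4 ENR and 6 higher in AHR KO d4 ENR. The widest lay in Ceacam1, a membrane adhesion protein of colonocytes (7407 bp), with 5569 to 6224 bp in WENR, 1515, 3473 and 4996 bp in WT d4 ENR and 5439 and 5719 bp in AHR KO d4 ENR. In the shortened lists the difference of d4 ENR from WENR at Ceacam1 turned to 252.5 bp and that of AHR KO from WT in d4 ENR to -505 bp. The member in Vil1, the villin gene whose promoter drives the Cre, had 3435 to 4527 bp in WENR, 1813, 2012 and 2167 bp in WT d4 ENR and 3177 and 2059 bp in AHR KO d4 ENR. No member was nearest to any of 14 goblet cell or 15 enteroendocrine cell genes. Since 6.91% of all protein-coding genes were nearest to a member, lists this short can hold none, and nothing is read from this. Of 12 tuft cell genes Sh2d6 and Ptgs1 had 1 each, and the Sh2d6 member had 2468 to 3633 bp in WENR, 781, 393 and 1579 bp in WT d4 ENR and 2360 and 2386 bp in AHR KO d4 ENR.

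Cell adhesion, keratin and matrix genes had 16 members near 10 of 26 genes, with 5 lower in d4 ENR and 12 higher in AHR KO d4 ENR. The median member of this list kept 57.6% of its WENR bases in WT and 87.1% in AHR KO. The member near Krt8, a keratin of simple epithelia, was 1 peak in all 10 libraries, of 2792 to 4265 bp in WENR and 1982 to 3650 bp in d4 ENR. The YAP/TEAD targets had 8 members near 6 of 22 genes, with 6 lower in d4 ENR and 6 higher in AHR KO d4 ENR, and the widest, near the stress gene Gadd45b, had 3270 to 4392 bp in WENR and 2036 to 4195 bp in d4 ENR. Fetal-like and regeneration genes had 6 members near 4 of 19 genes, with 3 lower in d4 ENR and 1 higher in AHR KO d4 ENR. Of the pair near Il1rn, the interleukin-1 receptor antagonist, the wider one had 1410 to 3740 bp in WENR and 496 to 1008 bp in d4 ENR (turned to a difference of 168 bp in the shortened lists), while the other kept 3097 to 3317 bp in d4 ENR.

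AP-1 factor genes had 6 members near 5 of 19 genes, not counting the one within Atf3, of which 1 was lower in every d4 ENR library and 1 higher in both AHR KO d4 ENR libraries. The widest, in Fosl2, had 1471 to 3425 bp in WENR, 0, 589 and 0 bp in WT d4 ENR and 436 and 1870 bp in AHR KO d4 ENR. The AHR pathway list had 4 members near 2 of 11 genes, Nfe2l2, the regulator of the antioxidant response, and Ugt1a6a, a glucuronosyltransferase. None lay nearest to Cyp1a1, Cyp1b1, Ahrr, Tiparp or Ahr itself. With a share of 6.91% over all protein-coding genes, nothing is read from this either. The wider Nfe2l2 member (chr2:75694333-75698329) had 2543 to 3260 bp in WENR, 525, 372 and 2228 bp in WT d4 ENR and 2507 and 1819 bp in AHR KO d4 ENR, differences that turned to 87.5 bp between media and -175 bp between genotypes in d4 ENR in the shortened lists. The other (chr2:75714074-75717050) had 2192 and 2385 bp in WT WENR, 2713, 2366 and 2402 bp in AHR KO WENR, 1745, 1907 and 2126 bp in WT d4 ENR and 2790 and 2940 bp in AHR KO d4 ENR.

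Peak height did not enter the rule, but it is a mean over a peak and so is tied to the length that did. The height of a region in a library was the highest fold enrichment of its peaks over local background, ranked among the 28205 regions with a peak in all 10 libraries and compared with limma on normal scores of the ranks. Across those regions the Spearman correlation of width and height was -0.36 to -0.32 in the WENR libraries and -0.27 to 0.02 in the d4 ENR libraries, a description over regions that share a library. A region split into pieces took the height of its highest piece. The local background spanned 10000 bp, so a wide region made up part of its own background. The part of both in the ranks was not tested. The calls below are therefore given beside those over all regions as a description, and nothing about the members rests on them. By this measure the 1366 members that passed that filter were low. Their median percentile was 16.5 and 16.8 in WT WENR, 16.9, 17.4 and 17.5 in AHR KO WENR, 34.0, 30.8 and 26.6 in WT d4 ENR and 22.7 and 19.8 in AHR KO d4 ENR. Wide regions near promoters were also low, at 15.4 to 17.0 in the WENR libraries and 18.8 to 42.3 in the d4 ENR libraries. In d4 ENR 533 members (39.0%) had risen in rank at a limma adjusted p under 0.05, where 22.7% of all regions tested had, and 69 (5.05%) had fallen, where 19.3% had. An exact permutation test over the libraries called 0 in either direction, with a smallest possible p of 0.02 and a smallest adjusted p of 0.06. The median change was 0.34 normal-score units over members and 0.06 over all regions. Wide regions near promoters were like the members by limma, with 41.5% risen, 4.53% fallen and a median change of 0.38. Of narrower distal regions 16.5% had risen and 24.0% had fallen. Among members near listed genes, one 18557 bp upstream of Klf5 (chr14:99278519-99281750) rose from a mean percentile of 26.5 in WT and 28.0 in AHR KO WENR to 76.4 and 77.6 in d4 ENR (limma adjusted p = 9.7e-05). The member in Vil1 rose from 1.33 and 0.878 to 16.8 and 6.86 (limma adjusted p = 0.000269). The member upstream of Tgfbr2 described above rose from 1.95 and 1.66 to 24.2 and 6.16 (limma adjusted p = 0.000503). The Klf12 member that split into 3 pieces rose from 1.88 and 1.47 to 29.3 and 4.67, and the Id1 member rose by 0.48 normal-score units. Both were chosen by their increase of pieces, which enters the height, so no p-value is given for them. The Klf5, Vil1 and Tgfbr2 members were chosen after their values were seen, so their p-values are a description only. The Ceacam1, Gadd45b and Krt8 members did not pass the limma test, with changes of -0.01, 0.06 and 0.33.

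The same test on pileup, the mean number of fragments over a peak, gave another picture. By pileup the median percentile of members lay between 46.7 and 51.5 in all 10 libraries. It was higher for 282 members in d4 ENR, where 20.6% of all regions were, and lower for 379, where 21.4% were, by limma at the same threshold. Both measures are means over a peak, so they depend on its length. Across the 1366 members the change of rank by fold enrichment and the log2 change of the widest peak had a Spearman correlation of -0.30, and across all 28205 regions one of 0.15, both descriptions over regions that share libraries. The members that rose in rank had a median log2 change of their widest peak of -0.98 and those that fell in rank one of -0.51. The direction of the height change of members in d4 ENR thus depended on the measure.

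**Figure D5:**
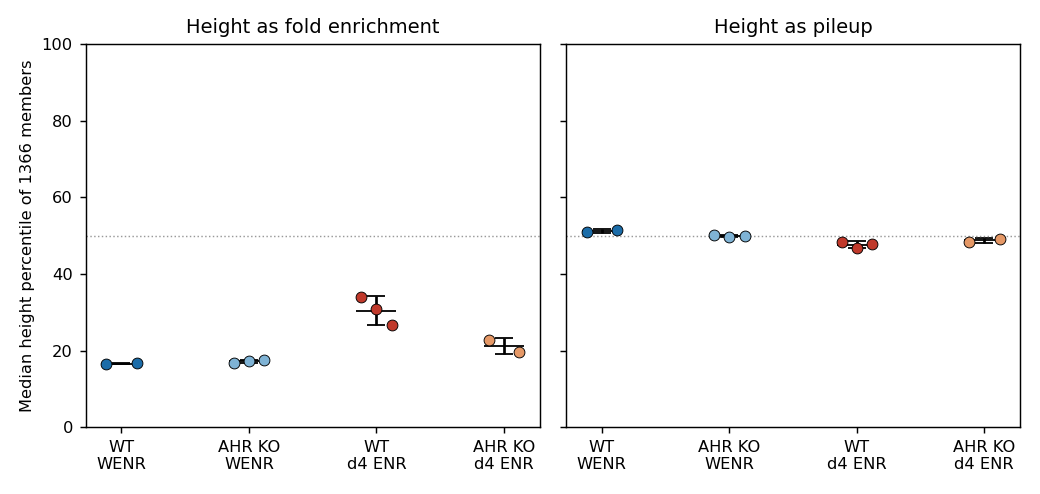
Median height percentile of the 1366 members with a peak in all 10 libraries, by fold enrichment (left) and by pileup (right), for each library (points) with group mean and SD (bars) and a dotted line at 50. Fold enrichment places the members between 16.5 and 34.0, highest in WT d4 ENR, and pileup between 46.7 and 51.5.

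Between the genotypes in d4 ENR, 126 members ranked lower by fold enrichment in AHR KO (limma adjusted p under 0.05), where 3.42% of all regions did, and 11 ranked higher, where 3.3% did. The count of lower members rested on single libraries: it was 8 without AHR KO d4 ENR replicate 1, 37 without AHR KO d4 ENR replicate 2, 54 without WT d4 ENR replicate 2, 50 to 57 without any 1 of the WENR libraries and 237 without WT d4 ENR replicate 3. By pileup 14 were lower, where 0.929% of all regions were, and 11 higher, where 0.713% were. Among named members, one nearest to Sox9 but 303765 bp from its start (chr11:113084148-113087830) had a limma adjusted p of 0.00459. Its mean percentile was 44.4 in WT and 5.89 in AHR KO d4 ENR. The Cdh1 member had a limma adjusted p of 0.0394, with percentiles of 12.7 and 0.800. Both were chosen after their values were seen, and both had longer peaks in AHR KO d4 ENR than in WT.

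In WENR no member passed the limma test between genotypes by fold enrichment in either direction, where 0% of all regions did in each, and 28 (2.05%) had an unadjusted p under 0.05, against 2.28% of all regions. By pileup none passed and 87 (6.37%) had an unadjusted p under 0.05, against 4.90% of all regions. The test of whether the genotype difference changed between the media called no member either (limma), but 45 as lower and 4 as higher without WT d4 ENR replicate 3, and 4 as lower without WT d4 ENR replicate 1. Of all regions 0% passed as higher and 0.00355% as lower, and 259 members (18.96%) had an unadjusted p under 0.05 by fold enrichment, against 15.2% of all regions. By pileup 229 (16.8%) did, against 13.8%. By height rank, the difference between the genotypes was not shown to differ between the media.

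By base composition the members lay closer to other distal regions than to promoters. Their median GC content was 45.9%, against 46.0% in narrower distal regions and 54.2% in wide regions near promoters, and CpG pairs occurred 11.1 times per kb, against 9.94 and 36.5. Repeat-masked sequence made up 18.4%, against 13.9% and 11.6%. Words of 6 factor families were counted on both strands. They were ACATTCC or GCATTCC for TEAD, TGACTCA or its reverse complement TGAGTCA for AP-1, and CAAAGTCCA or CAAAGTTCA for HNF4. They were GCAATAAA or GCCATAAA or GTAATAAA or GTCATAAA for CDX2, GGGTGTGG or GGGCGTGG for KLF, and TNGCGTG for AHR:ARNT. No family's word holds that of another family.

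An AP-1 word occurred 0.378 times per kb in members, 0.514 times in narrower distal regions and 0.226 times in wide regions near promoters. TEAD words had 0.319, 0.372 and 0.254 per kb and CDX2 words 0.217, 0.277 and 0.125 per kb. HNF4 words had 0.0488, 0.0661 and 0.0358 per kb. AHR:ARNT words, which hold a CpG, had 0.0983 and 0.0963 per kb in members and narrower distal regions and 0.187 per kb near promoters. Since members are long, 69.1% held an AP-1 word and 62.7% a TEAD word somewhere, against 34.2% and 25.9% of narrower distal regions. A CDX2 word lay in 48.2% of members, a KLF word in 41.5%, an AHR:ARNT word in 25.5% and an HNF4 word in 14.4%, against 20.2%, 15.3%, 7.62% and 5.48% of narrower distal regions. In the central 160 bases the order was that of the words per kb, with an AP-1 word in 4.52% of members and 10.8% of narrower distal regions. TEAD words lay there in 4.52% and 6.23%, CDX2 words in 2.82% and 5.65% and KLF words in 2.58% and 3.57%. HNF4 words lay there in 0.875% and 1.38%. The midpoint of a merged region is not a measured summit, and in d4 ENR members were less covered near it than at their shoulders. The windows of members and of narrower regions may thus not be alike. An AHR:ARNT word lay in the central 160 bases of 1.75% and 1.54%. The 1047 members that were lower in d4 ENR had 0.403 AP-1 and 0.0973 AHR:ARNT words per kb, against 0.378 and 0.0983 in all members.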

How the data were processed

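Omni-ATAC-seq libraries were prepared from live cells sorted out of organoids. Reads were aligned by the authors to GRCm38 with BWA within nf-core/atacseq. MACS 2.2.7.1 was run on each library alone and with no control, for broad peaks, at q thresholds of 0.1 (broad) and 0.05 (narrow), with local background taken over 10000 bp. A deposited list gives, per peak, the pileup signal, which is fragment coverage as a mean over the peak without depth scaling. The authors' caller also gave the ratio of pileup to local background as fold enrichment, and −log10 p and q values. Totals and lengths of fragments were read per the file headers. Read counts per region were not analysed here.

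Peaks were merged with Python 3.11.15, numpy 2.4.6 and pandas 2.3.3 and assigned to the nearest protein-coding start of GENCODE M21. Covered bases and pieces were not tested. Heights were ranked within each library over the regions with a peak in all 10, turned into normal scores and fitted with limma 3.58.1 in R 4.3.3 with 4 group means, with Benjamini-Hochberg adjustment over 28205 regions and a threshold of 0.05. The scripts were tested on simulated data. The members and gene lists were chosen with earlier results of these data known.

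Members named were the 5 widest, those with the largest differences between media (5 in each direction) and between genotypes in d4 ENR (4 in each direction) among members whose libraries did not overlap, the 4 with the largest increase of pieces, those at the thresholds and the widest of each list. Members near Cdh1, Gata6, Cdx2, Foxa1, Cd44, Tgfbr2, Vil1, Sox9, Ptgs1, Fchsd2, Gm10553 and Gm21119, the second of Nfe2l2 and Il1rn, and the upstream one of Klf5 were chosen after their values were seen.

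The labels tie no library to an animal, so p-values measure only the spread between these libraries, which may be technical.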

Additional observations from a re-analysis of the deposited data

Results flagged for a closer look

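In 67 members the covered bases were lower in every WT d4 ENR than in every WT WENR library and higher in every AHR KO d4 ENR than in every AHR KO WENR library, and in 1 member the directions were exchanged. The difference between the genotypes was not tested for covered bases. Among the members named above, the mean difference of d4 ENR from WENR was -1921 bp in WT and 851 bp in AHR KO for Cdh1, -558 bp and 2126 bp for Gata6, and -362.5 bp and 371 bp for the second Nfe2l2 member. It was 1476 bp in WT and -666 bp in AHR KO for the member nearest to 4930467E23Rik, which is the 1 member of the exchanged direction and shares most of its sequence with another member.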

How the results depend on the processing

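Covered bases were lower in d4 ENR in both genotypes, and higher in AHR KO than in WT in d4 ENR, under every alternative run. With every list shortened to 33433 peaks, the rule gave 1326 members, and the log2 changes were -0.92 (WT) and -0.36 (AHR KO). Then 483 members were lower in d4 ENR, 702 higher and 19 lower in AHR KO d4 ENR, 131 higher and 147 lower in AHR KO WENR, 25 had more pieces, and 338 rose and 30 fell in rank. With peaks of −log10 q of at least 5, the log2 change in WT was -1.54 and AHR KO over WT 0.92, WT pieces differed by 0.12, 3 members were higher in d4 ENR and 0 lower in AHR KO d4 ENR, 7 had more pieces, 182 rose and 36 fell in rank, and 3 ranked higher and 46 lower in AHR KO d4 ENR. At a width of at least 3000 bp these were 972 members, with 518 lower in d4 ENR, 502 higher in AHR KO d4 ENR, 134 higher and 114 lower in AHR KO WENR, 26 with more pieces, 279 risen and 30 fallen in rank, and 7 ranked higher and 70 lower in AHR KO d4 ENR. Joined at 1020 bp, a distance chosen after seeing the data, WT pieces differed by 0.10 and 17 members had more. Without WT d4 ENR replicate 1 and AHR KO WENR replicate 3, also chosen after seeing the data, 22 members were higher in d4 ENR, 29 lower in AHR KO d4 ENR and 394 lower in AHR KO WENR, and 79 had more pieces. By pileup 282 rose and 379 fell in rank, and 14 ranked lower in AHR KO d4 ENR. By length-weighted mean fold enrichment 66 did. The causes were not tested. The counts of this section are over the members, with no share over all regions beside them. Nothing about the members is read from them. No count moved by over 1.5 times with autosomes only, with regions called in at least 2 libraries, at more than 10 kb from a start, with peaks less than 200 bp apart joined, or without the 57 members that shared at least 10% of their 31-base words with another member (chosen after seeing the data).

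Named members turned direction in the shortened lists. For d4 ENR minus WENR they were Fam71a (33.7 bp), Cystm1 (2464 bp), Ezr (43.2 bp), the wider Nfe2l2 member (87.5 bp), Errfi1 (720 bp), Ceacam1 (252.5 bp) and Il1rn (168 bp). For AHR KO minus WT in d4 ENR they were Fam71a (-67.3 bp), Id1 (-133 bp), C130026I21Rik (-684 bp), Nfe2l2 (-175 bp) and Ceacam1 (-505 bp). With peaks of −log10 q of at least 5, 4930467E23Rik turned to 790.5 bp.

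Leaving out 1 library at a time gave 1805 to 2049 members, log2 changes of -1.36 to -1.05 in WT and -0.59 to -0.49 in AHR KO, and 0.55 to 0.86 for AHR KO over WT in d4 ENR. It gave 930 to 1220 members lower and 10 to 16 higher in d4 ENR. In AHR KO d4 ENR 964 to 1452 were higher and 9 to 40 lower, the latter without AHR KO d4 ENR replicate 2. In AHR KO WENR 256 to 550 were higher (550 without AHR KO WENR replicate 1) and 220 to 476 lower (476 without WT WENR replicate 2). More pieces were found in 42 to 83 members (83 without AHR KO d4 ENR replicate 1 and 77 without WT d4 ENR replicate 1). In rank 365 to 746 rose and 34 to 84 fell (34 without WT WENR replicate 2), 1 to 23 were higher and 8 to 237 lower in AHR KO d4 ENR, and 0 to 4 were called higher and 0 to 45 lower in the interaction, which tests whether the genotype difference changes between media.

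Same-numbered libraries of both media did not deviate together (correlations of -0.011 and 0.020 in WT, -0.121 and -0.061 in AHR KO). In same-numbered pairs the log2 changes were -1.49 and -1.23 in WT and -0.46 and -0.55 in AHR KO. With the replicate number as a block, 1 member was called lower in that interaction, against 0 without it, and 544 were called between d4 ENR and WENR in either direction, against 602. In an exact permutation test of the ranks between media 0 members rose and 0 fell, since its smallest adjusted p was 0.06, and 586 had an unadjusted p under 0.05. The same exact permutation test between genotypes could not go below p = 0.2, so it says nothing of them.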
